A study of Mus musculus with 41 samples.

Results

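The 7 Plk2-/-; p53-/- mouse mammary tumors PLK2null-7747, PLK2null-7748, PLK2null-7749, PLK2null-7750, PLK2null-7753, PLK2null-7763 and PLK2null-7764, called the 77xx tumors here, were compared with the 18 tumors of the same genotype numbered from PLK2null-1963 to PLK2null-1989, called the 19xx tumors. Members were chosen by tumor number alone, and they are 7 of the 28 Plk2-/-; p53-/- tumors and of the 41 tumors of the series. The study's supplement names the 77xx numbers among its primary tumors. The series as a whole is described as serially transplanted, the sample labels give every tumor as injected orthotopically into syngeneic hosts, and how a 19xx tumor relates to a 77xx tumor is not given in the sources used here. Left out were PLK2null-743, PLK2null-733 and PLK2null-732.

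All 25 tumors were on the Balb/c background, were labelled p53-null and PLK2-null, and grew without treatment. Per the study's methods, the model begins with a graft of donor mammary epithelium that lacks both genes, and the animals that receive it keep both. Blood vessels, fibroblasts, immune cells and fat within a tumor can therefore come from a host with intact Plk2 and p53. The labels give no age for the hosts. RNA was measured by mRNA sequencing with 1 library per tumor. Values are estimated counts divided by the tumor's upper quartile, with that quartile set to 1000, and differences are in log2(value + 1), as 77xx minus 19xx throughout. This scale understates the differences of genes with low values. The values imply 31910251 to 46044076 fragments in a 77xx tumor and 34128770 to 53244728 in a 19xx tumor. A gene was taken as detected from 3 reads on, which were worth 1.48 to 2.26.

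When a mammary tumor is transplanted, its cancer cells are carried on, while vessels, fibroblasts and immune cells are largely supplied by the new host. Tumors from separate transplants of p53-/- mammary cells can differ widely, since loss of p53 permits chromosome gains and losses that differ from tumor to tumor. Plk2 is a Polo-like kinase that is induced by p53 and acts in early cell cycle and centriole duplication, and its relative Plk1 drives mitosis.

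Plk2 (chromosome 13, 110395046 to 110400844, plus strand; mm10) was read first, because it is the deleted gene. Its value was 234 in PLK2null-7747, 104 in PLK2null-7748, 274 in PLK2null-7749, 347 in PLK2null-7750, 238 in PLK2null-7753, 83.3 in PLK2null-7763 and 83.8 in PLK2null-7764. In the 19xx tumors it lay between 216 and 553, with a median of 399. All 7 of the 77xx tumors lay below the median of the 19xx tumors, 3 of them lay below every 19xx tumor, and the other 4 overlapped the 19xx range. In the 13 p53-/- tumors with intact Plk2 the median was 3402, and the range of 186 to 8028 overlapped that of the Plk2-/-; p53-/- tumors. The difference between the means of log2(value + 1) was -1.09 (2-sided exact permutation test over all 480700 splits of 7 against 18, p = 0.000605). That test takes all tumors as unrelated, while the 19xx tumors fell into sets of alike tumors, described below. Its p can therefore be too small. The difference was also uneven between these sets, as given below. Over all genes tested Plk2 did not pass in limma (standard error, 0.25, adjusted p = 0.9997). Which part of Plk2 the allele lacks is not given in the sources used here, and a share of host cells in these reads was not tested.

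The 25 tumors were not 25 unrelated samples. Across the 2000 most variable genes, each 19xx tumor was put with the 77xx tumor it was closest to, which gave 6 sets. The closest tumor was sought among the 77xx tumors only, unless stated. Many 19xx tumors were closer to another 19xx tumor, and others were not. For example, PLK2null-1973 was at 0.60 to PLK2null-1974 and 0.32 to PLK2null-7749. These correlations are across genes, which do not replicate one another, and carry no p-value. PLK2null-1963, PLK2null-1964, PLK2null-1965 and PLK2null-1971 were closest to PLK2null-7747 (Pearson r, 0.68 to 0.90). PLK2null-1984, PLK2null-1985 and PLK2null-1986 were closest to PLK2null-7750 (0.74 to 0.80). PLK2null-1987, PLK2null-1988 and PLK2null-1989 were closest to PLK2null-7753 (0.63 to 0.80). The 19xx tumors of these 3 sets were correlated with one another at 0.59 to 0.86, 0.83 to 0.89 and 0.61 to 0.73, so the 77xx tumor lay outside that range, on the low side, only in the set of PLK2null-7750 among the 3. PLK2null-1977, PLK2null-1980 and PLK2null-1981 were closest to PLK2null-7764 (0.44 to 0.59), and PLK2null-1973, PLK2null-1974 and PLK2null-1975 to PLK2null-7749 (0.30 to 0.64). The weakest set was that of PLK2null-7748, with PLK2null-1967 at 0.39 and PLK2null-1970 at 0.31. PLK2null-7748 itself was closer to tumors outside this set, at 0.63 to PLK2null-1971 and 0.61 to PLK2null-7747. It was at 0.56 to 0.58 to PLK2null-1963, PLK2null-1964 and PLK2null-1965. The 19xx tumor closest to PLK2null-1970 was PLK2null-1971 (0.48), of another set. No 19xx tumor was closest to PLK2null-7763. Pairs of 19xx tumors in 1 set had a median r of 0.64 over 19 pairs, and pairs in different sets a median of -0.09 over 134 pairs. Every 19xx tumor had the same closest 77xx tumor with 500 or 5000 genes and with Spearman correlation. The most alike pair, PLK2null-7750 and PLK2null-1984, still differed beyond counting noise (median chi-square per gene, 6.36, where counting noise alone gives 0.455). This speaks only to the same RNA sequenced again, and cannot tell whether tumors share an origin. Each tumor was counted as 1 sample.

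**Figure D1:**
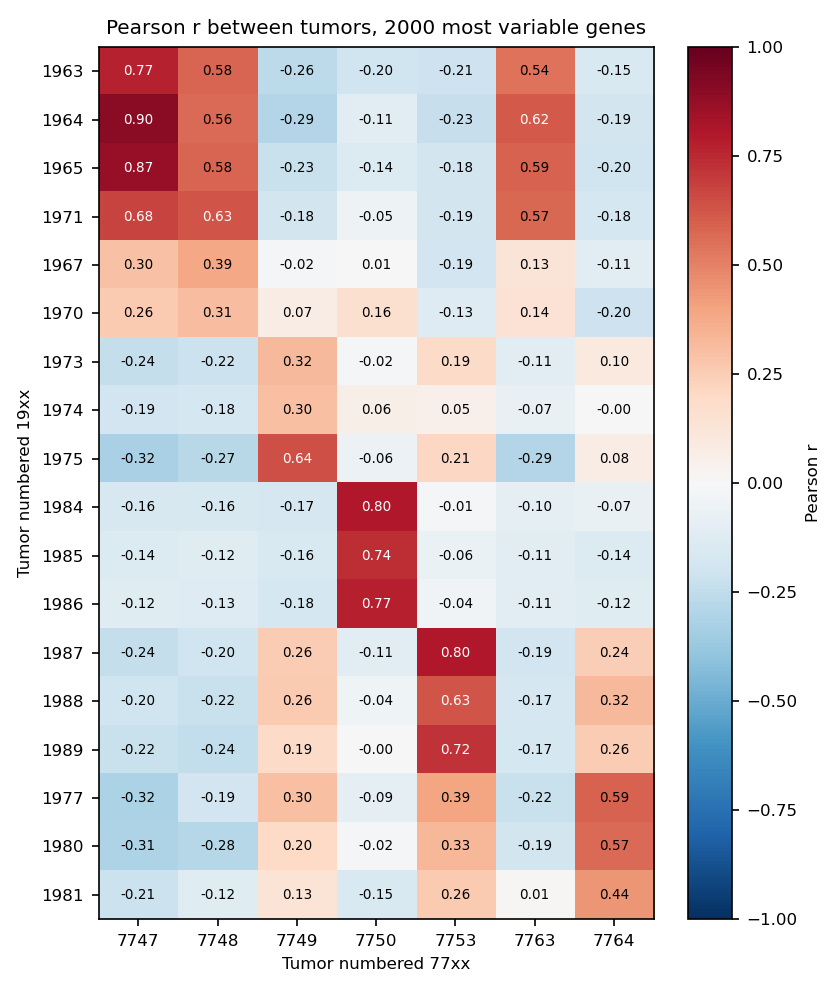
Pearson r of log2(value + 1) across the 2000 most variable genes, centred on each gene's median, for every 19xx tumor (rows, ordered by set) and every 77xx tumor (columns). The highest r of each row gives its set, from 0.90 for PLK2null-1964 with PLK2null-7747 down to 0.30 for PLK2null-1974 with PLK2null-7749. The column of PLK2null-7763 holds no tumor's highest value, and that of PLK2null-7748 is higher in the rows of PLK2null-7747's set than in its own.

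Neighbouring genes on chromosome 10 also grouped some of these tumors, and they were picked after their values were seen. Mdm2 (chromosome 10, 117688875 to 117710758, minus strand), whose product marks p53 for destruction, was at 19585 in PLK2null-7747, 19565 in PLK2null-1963, 18245 in PLK2null-1964 and 13406 in PLK2null-1965. It was between 1052 and 2469 in the other 21 tumors. By their median, the 12 tested genes from Mdm2 to Tmbim4 were high in the same 4 tumors, at 2.98 to 3.58 above the median of the 25 tumors on the log2 scale. The median of the 14 tested genes just before, from Cnot2 to Cpsf6, was high in those 4 tumors (2.41 to 3.03). It was also high in PLK2null-7748, PLK2null-1967, PLK2null-1970 and PLK2null-1971 (1.90 to 5.58). In the latter 4 tumors the median of the genes from Mdm2 to Tmbim4 was not high, at -0.88 to -0.06. Single genes departed from these medians. Lyz2 of the first stretch was at 6516 in PLK2null-7747 and 24594 in PLK2null-7764. Irak3 of the second was at 141 in PLK2null-1963 and 467 in PLK2null-1984. The other 17 tumors were at -0.50 to 0.43 in the first stretch and -0.28 to 0.37 in the second. Yeats4, a chromatin reader in the first stretch and likewise picked after its values were seen, was at 64154 in PLK2null-7748, 26982 in PLK2null-1967, 24229 in PLK2null-1971 and 5224 in PLK2null-1970. In the 4 tumors high in both stretches it was at 6186 to 9991, above PLK2null-1970, so it does not by itself part the 2 patterns. By the medians of both stretches PLK2null-1971, which the correlation put with PLK2null-7747, has the pattern of PLK2null-7748. With it moved, each of the 6 sets holds 3 of the 19xx tumors. DNA copy number was not measured in these files.

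**Figure D2:**
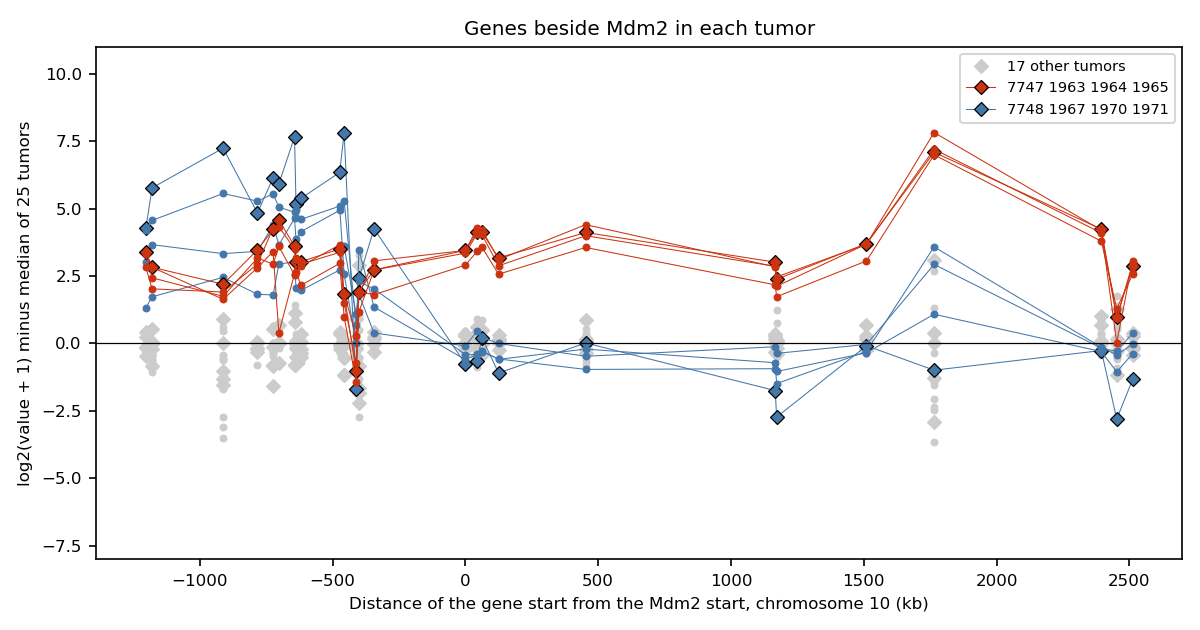
log2(value + 1) minus the median of the 25 tumors for tested genes of both stretches, against the distance of each gene's start from that of Mdm2 in kb; diamonds are 77xx tumors and circles 19xx tumors. By their median, the 14 genes before Mdm2 are high in 8 tumors and the 12 genes from Mdm2 on in 4, PLK2null-7747, PLK2null-1963, PLK2null-1964 and PLK2null-1965, while single genes depart from this.

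PLK2null-7763 stood apart from the other 77xx tumors in vessel genes, and PLK2null-7764 in fast skeletal muscle genes. By correlation across the most variable genes these 2 tumors were not the ones furthest from the other 77xx tumors. The highest r with another 77xx tumor was 0.61 for PLK2null-7763, with PLK2null-7747, and 0.30 for PLK2null-7764, with PLK2null-7753. For PLK2null-7750 it was 0.0014, with PLK2null-7753. In PLK2null-7763 the vessel genes Pecam1 and Cdh5, named after their values were seen, were at 22792 and 20398, against 602 to 1533 and 629 to 2212 in the other 77xx tumors. Its score of lymphatic endothelium, the mean of log2(value + 1) over the list after centring on each gene's median, was 5.86, and that of blood endothelium 3.81. The 3 tumors left out were closest to it (r, 0.66 to 0.71). In PLK2null-7764 the fast skeletal muscle genes Acta1 and Myh4 were at 1211 and 740, against at most 72.2 and 43.2 in the other 77xx tumors and 16.9 and 4.73 in the 19xx tumors. In bulk tumor RNA, fewer cells of a type and less RNA per cell cannot be told apart.

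No gene passed the test between the 77xx and the 19xx tumors. In the comparison of 7 with 18 tumors, 0 of 17014 genes (0%) passed an adjusted p of 0.05 in limma, and the lowest adjusted p was 0.9997. At an unadjusted p below 0.05 there were 387 genes (2.27%), 227 higher (1.33%) and 160 lower (0.94%) in the 77xx tumors. The median standard error of a log2 difference was 0.26, and 482 genes differed by more than 1 on the log2 scale without passing.

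The second comparison took each 77xx tumor against the 19xx tumors of its own set, which removes the differences between sets. It used 6 77xx and 18 19xx tumors and leaves PLK2null-7763 out, because that tumor has no set. The median residual SD was 0.37, against 0.58 in the comparison of 7 with 18. Again 0 of 17014 genes (0%) passed, and the lowest adjusted p was 0.556. An unadjusted p below 0.05 was reached by 1486 genes (8.73%), 825 higher (4.85%) and 661 lower (3.89%) in the 77xx tumors. Without PLK2null-7748 this count was 681 of 16976 genes (4.01%). With PLK2null-1971 moved to the set of PLK2null-7748 it was 1477, and 0 genes passed. The sets were read from the same values that were then compared, and single genes below are values that did not pass.

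Among the named genes of lowest p within sets, some were above or below every related tumor in each set. Such counts follow in part from picking genes by that p. The share of all genes that do the same was not counted, here or for the genes below. Zfp324, a zinc-finger gene, was higher in the 77xx tumor than in every 19xx tumor of its set in 6 of 6 sets. It was at 383 to 554 in the 77xx tumors and 175 to 469 in the 19xx tumors, a difference of 0.52 within sets (limma, standard error, 0.11; adjusted p = 0.556). Zfyve9, which encodes an anchor for Smads at the TGF-β receptor, was also above every 19xx tumor of its set in 6 of 6 sets, with a difference of 0.55. Its values were 1848 in PLK2null-7747, 2261 in PLK2null-7748, 798 in PLK2null-7749, 600.2 in PLK2null-7750, 1175 in PLK2null-7753 and 778 in PLK2null-7764. The spread of Zfyve9 between sets was larger than that difference, since PLK2null-7750 lay below the median of the 19xx tumors, 693. Nmb, the neuropeptide neuromedin B, differed by 0.58 and was above all of its set's 19xx tumors in 5 sets. The clone-named genes RP24-120F8.1 and RP24-344N22.4, differed by 0.72 and -1.11 and have no position in the annotation used.

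Among genes lower in the 77xx tumors, Rdh11, a retinal reductase, followed RP24-344N22.4 among the named genes by p. It lay between 435 and 765 in the 77xx tumors and 511 and 917 in the 19xx tumors, was below all 19xx tumors of its set in 5 of 6 sets, and differed by -0.38 (standard error, 0.09; adjusted p = 0.556 in limma). Ccl2, the chemokine that draws monocytes, was at 50.1 in PLK2null-7747, 45.9 in PLK2null-7748, 120.5 in PLK2null-7749, 89.0 in PLK2null-7750, 225 in PLK2null-7753, 343 in PLK2null-7763 and 92.8 in PLK2null-7764. Its 19xx values ran from 83.2 to 713. Ccl2 differed by -1.39 within sets (standard error, 0.31; adjusted p = 0.556 in limma) and was below all 19xx tumors in 5 sets and above them in that of PLK2null-7753. Wnt2, a Wnt ligand, was low in all tumors, at 0 to 45.2 in the 77xx and 3.12 to 104 in the 19xx tumors, and differed by -1.60 in the same direction in 6 of 6 sets. Prss46, a serine protease gene, differed by -1.79, and its 77xx values ran from 0 to 13.5.

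Within sets Plk2 differed by -0.94 (standard error, 0.24; adjusted p = 0.556 in limma). The 77xx tumor was below the mean of its 19xx tumors in 6 of 6 sets. The difference was uneven. It was -2.25 for PLK2null-7748 and -2.28 for PLK2null-7764 but -0.15 to -0.46 in the other 4 sets, where the 77xx tumor lay below all of its 19xx tumors in 1. Across the 25 tumors Plk2 moved with the immediate-early genes (Pearson r, 0.53) and macrophage genes (0.42), and against skeletal muscle (-0.40) and blood endothelium (-0.39). The other 2 lists compared with it, fibroblast and adipocyte, had r of -0.0103 and -0.0438. These are descriptions over tumors that are related. The highest muscle score, 6.02 in PLK2null-7764, was far above the next, 2.61. The highest blood endothelium score, 3.81 in PLK2null-7763, was far above the next, 0.68. Both tumors were low in Plk2, and r was not computed without them.

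**Figure D3:**
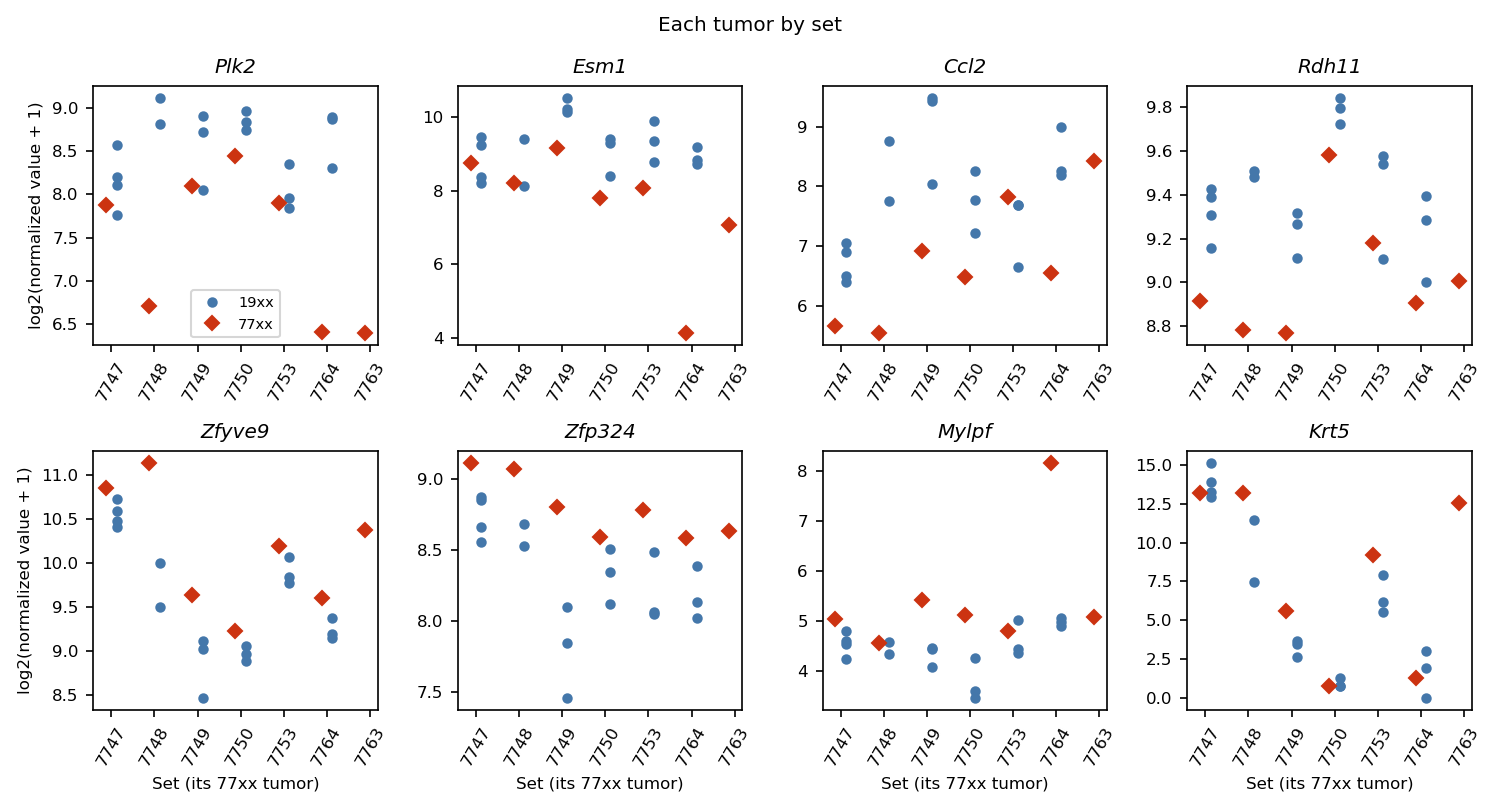
log2(value + 1) of 8 genes in each tumor, by set, with the 77xx tumor as a diamond and its 19xx tumors as circles; PLK2null-7763 has no set. Zfyve9 and Zfp324 of the 77xx tumor lie above the set's 19xx tumors in 6 of 6 sets, while Krt5 differs mainly between sets and also widely within that of PLK2null-7748.

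In the comparison of 7 with 18 tumors, the genes of lowest p beside Plk2 and RP24-344N22.4 were again few and did not pass. Esm1, a proteoglycan of activated endothelium that lies 2808815 bases from Plk2 on chromosome 13 (113209659 to 113218098), was at 16.5 to 566 in the 77xx and 278 to 1471 in the 19xx tumors, a difference of -1.60 (limma, standard error, 0.45; adjusted p = 0.9997). PLK2null-7764 held its lowest value. Fmn2, an actin nucleator, was at 0.75 in PLK2null-7748 and 2.74 in PLK2null-7763 and between 115 and 246 in the other 77xx tumors, against 43.9 to 806 in the 19xx tumors. Ccr2, the receptor of Ccl2 on monocytes, differed by -1.02. Higher in the 77xx tumors were Zfp758 (0.64), Zfp960 (0.56), Zfp942 (0.47) and Mylpf (1.003), a light chain of fast skeletal myosin. Zfp758, Zfp960 and Zfp942 lie on chromosome 17 in a family of alike genes, so reads may be split among them. Without PLK2null-7764 the difference of Mylpf was 0.55.

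Of the genes that the study names for these tumors, Krt5 and Met differed mainly between sets, apart from the set of PLK2null-7748. Krt5, a basal keratin, was at 9505 in PLK2null-7747, 9443 in PLK2null-7748 and 6097 in PLK2null-7763, at 594 in PLK2null-7753 and 47.5 in PLK2null-7749, and at 0.68 and 1.41 in PLK2null-7750 and PLK2null-7764. It ran from 0 to 36680 in the 19xx tumors. Met, the receptor of hepatocyte growth factor, was at 624.5 in PLK2null-7747, 640 in PLK2null-7748 and 1008 in PLK2null-7763, and at 83392 to 184472 in the other 4 of the 77xx tumors. It ran from 419 to 203935 in the 19xx tumors. The exact permutation p of the other 9 genes ran from 0.0989 for Cldn7, a tight-junction claudin, to 0.896 for Mdm2 (2-sided, 7 against 18). Plk1 was at 939 to 2098 in the 77xx and 822 to 1966 in the 19xx tumors, and Trp53 at 1563 to 3005 and 1726 to 3914. Plk3 and Plk4 differed by -0.17 and 0.07. Met and Krt5 differed widely in the set of PLK2null-7748. That tumor was lower than the mean of PLK2null-1967 and PLK2null-1970 by 5.68 for Met and higher by 3.73 for Krt5.

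Marker lists of cell types and of programs give the same values by gene group. Of the 42 lists, none had a member that passed in either comparison, so each is given by its median difference and its number of genes at an unadjusted p below 0.05 within sets, beside 4.85% higher and 3.89% lower among all genes. The median over all genes was 0.01. Counts below with a tumor left out or moved have other shares beside them. Without PLK2null-7748, 424 of 16976 genes were higher and 257 lower at that p within sets. Without PLK2null-7764 it was 532 and 658 of 17010, and with PLK2null-1971 moved 763 and 714 of 17014.

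Immune marker lists had medians below 0 within sets except that of neutrophils. Among 10 macrophage genes the median was -0.50 and 5 were lower at that p, with Cd68 at -0.70, Csf1r, the receptor that macrophages need, at -0.56, the mannose receptor Mrc1 at -0.70 and Fcgr1 at -0.58. Csf1r was at 868 to 2698 in the 77xx and 1052 to 4791 in the 19xx tumors, and below all 19xx tumors of the set in 5 of 6 sets. Without PLK2null-7748, 1 of the 10 was lower at that p, and the median was -0.26; with PLK2null-1971 moved it was 8. Of 8 genes of cytotoxic and natural killer cells 3 were lower, Eomes (-1.56), a transcription factor of these cells, Klrk1 (-1.25) and Ncr1 (-1.16), with a median of -1.01; without PLK2null-7748 it was 1 gene. T cell genes had a median of -0.83 with 2 of 10 lower, Icos (-1.37) and Cd4 (-0.96), and dendritic cell genes -0.67 with 3 of 7 lower, Cd209a (-1.20), Flt3 (-1.13) and Ccr7 (-1.09). Without PLK2null-7748 these counts were 1 and 1, and without PLK2null-7764 they were 4 and 4. In each of the adipocyte, T cell, cytotoxic and dendritic lists, 1 gene passed the filter on low values only with PLK2null-7763 included. B cell and plasma cell genes had none at that p in either direction. MHC class II genes, which present antigen on such cells, had a median of -0.69 with 0 of 9 at that p.

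Neutrophil genes went the other way, with a median of 0.64 and 3 of 8 higher. Retnlg, a neutrophil-secreted resistin, was at 28.8 in PLK2null-7747, 12.05 in PLK2null-7748, 88.0 in PLK2null-7749, 23.6 in PLK2null-7750, 23.0 in PLK2null-7753, 0.55 in PLK2null-7763 and 47.4 in PLK2null-7764, and at 0 to 71.0 in the 19xx tumors. It was above all 19xx tumors of its set in 5 of 6 sets and differed by 2.03 (standard error, 0.53; adjusted p = 0.556 in limma). Ngp, a granule protein, differed by 2.18 and S100a9, a subunit of calprotectin, by 0.94. Without PLK2null-7748, 5 of the 8 were higher, with a median of 0.998. PLK2null-7763 was lowest of the 77xx tumors in this list.

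Cytokine and chemokine genes had a median of -0.57 with 6 of 21 lower. Beside Ccl2, those of lowest p were the monocyte chemokines Ccl7 (-1.09) and Ccl8 (-1.16) and the chemokine Cxcl14 (-0.75). Without PLK2null-7748, 3 were lower and the median was -0.21.

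Adipocyte genes had a median of -1.20 within sets, with Cfd (-2.58), Adipoq (-2.04) and Cidec (-1.87) lower at that p among 9 tested of 10. The median was -0.87 without PLK2null-7763 and -0.82 without PLK2null-7764. Cfd, the adipocyte serine protease adipsin, was at 0 in PLK2null-7749 and at most 4.12 in PLK2null-7750, PLK2null-7753 and PLK2null-7764, at 33.8 and 56.5 in PLK2null-7747 and PLK2null-7748, and at 379 in PLK2null-7763. It reached 2385 in the 19xx tumors, with a median of 45.2. The tumors of PLK2null-7753's set were low for Cfd in both groups, with 0.66 in the 77xx tumor and 0.61 to 2.16 in its 19xx tumors. Of 10 skeletal muscle genes 9 were tested, and without PLK2null-7764 only 3 reached the mean of 10 that the test asked for. The list is therefore described by its values. Mean values in the 77xx and 19xx tumors were 112 and 1.02 for Myh4, 186 and 4.35 for Acta1, and 63.1 and 3.37 for Ckm, the muscle creatine kinase. The muscle score of PLK2null-7764 was 5.66 above that of its 19xx tumors and of PLK2null-7750 2.80 above, while the other 4 sets lay between -0.52 and -0.05.

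Blood endothelial genes had a median of 0.49 in the comparison of 7 with 18, -0.01 without PLK2null-7763 and -0.01 within sets, with 0 of 10 at that p. Lymphatic endothelial genes had a median of 1.02, 0.29 without PLK2null-7763 and 0.46 within sets, where Mmrn1 (1.78) was the 1 gene of 6 at that p. Within sets the median was 0.0667 without PLK2null-7764, and 2 genes were at that p without PLK2null-7748. Pericyte genes were lower in 6 of 6 sets by score, by 0.19 to 0.53, with a median of -0.37 and Rgs5 (-0.77) and Abcc9 (-0.63) of 8 at that p. Without PLK2null-7748, 1 of the 8 was. In PLK2null-7763 Abcc9 was at 4687, above every 19xx tumor. Fibroblast genes had a median of -0.45 with 1 of 12, the surface protein Thy1 (-0.76), and their score was 1.27 higher in PLK2null-7764 than in its 19xx tumors and 1.47 lower in PLK2null-7749. Without PLK2null-7764, 5 of 12 were lower, with a median of -0.80, and without PLK2null-7748 the median was -0.28.

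Both matrix lists had medians below 0. All 20 of the collagen and matrix list had a difference below 0 within sets, with a median of -0.42, and 3 were at that p, Col15a1 (-0.72), fibronectin Fn1 (-1.01) and tenascin Tnc (-0.90). Among all 17014 genes, 8724 had a difference above 0 within sets. Genes of a list do not replicate one another. By score this list was lower in 4 sets and higher in 2, by 0.47 for PLK2null-7764 and 0.04 for PLK2null-7753. Without PLK2null-7748 it was 1, and without PLK2null-7764 it was 6. Of 18 genes of matrix remodelling 4 were lower at that p, among them the metalloproteinase inhibitor Timp1 (-0.89), the macrophage elastase Mmp12 (-1.39) and the collagen cross-linker Loxl2 (-0.69). Without PLK2null-7748, 2 of the 18 were.

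**Figure D4:**
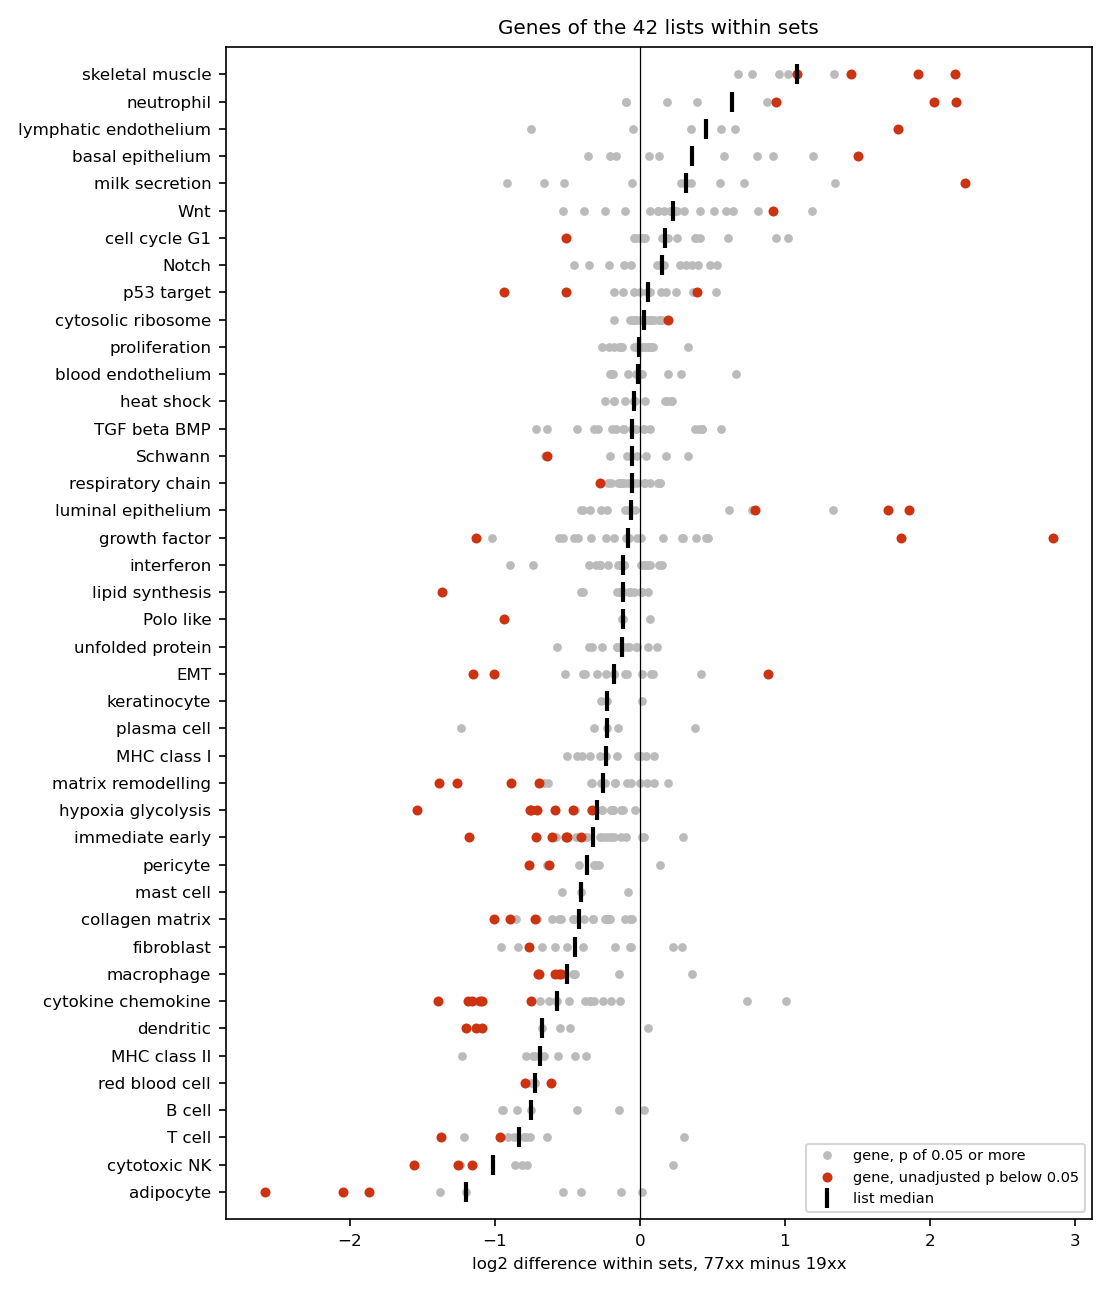
Difference within sets, 77xx minus 19xx in log2(value + 1), for each tested gene of the 42 lists (points), with genes at an unadjusted p below 0.05 in red and the list median as a bar. Medians run from -1.20 for adipocyte to 1.08 for skeletal muscle genes, of which 3 of 9 pass the filter on low values without PLK2null-7764, and none of the points passed adjustment over all 17014 genes.

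Hypoxia and glycolysis genes were all below 0, 20 of 20, with a median of -0.30 and 7 at that p. Of all 17014 genes, 8724 were above 0 within sets, and genes of a list do not replicate one another. Adm, the vasodilator adrenomedullin, was at 24.1 in PLK2null-7748 and 79.0 in PLK2null-7764 and at 192 to 807 in the other 77xx tumors, and at 113 to 2061 in the 19xx tumors, a difference of -1.53. The glucose transporter Slc2a1 differed by -0.75, hexokinase Hk2 by -0.76 and the oxygen sensor Egln3 by -0.71. Without PLK2null-7748, 2 were at that p, and without PLK2null-7764, 1. By score PLK2null-7748, PLK2null-7764 and PLK2null-7749 were lower than their 19xx tumors by 1.18, 1.10 and 0.72, and the other 3 sets lay between -0.16 and 0.31.

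Immediate-early genes, which respond quickly to growth and stress signals, had a median of -0.32 with 6 of 22 lower. Fosb differed by -1.18, Fos by -0.61, Dusp1 by -0.51 and Zfp36, an RNA-binding protein, by -0.40. Without PLK2null-7748, 3 were at that p and the median was -0.18.

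Epithelial genes differed from set to set. Luminal genes had a median of -0.06, with Foxa1 (1.86), Pgr (1.71) and Esr1 (0.79), a pioneer factor and both steroid receptors, higher at that p among 15. Foxa1 was at 770 in PLK2null-7750 against 10.05 to 23.0 in its 19xx tumors and at 622 in PLK2null-7749 against 56.6 to 97.1. In the set of PLK2null-7748 it was at 834, above 183 and 211. In that of PLK2null-7753 it was at 370, below all 3 of its 19xx tumors, and in the other 2 sets the values overlapped. With PLK2null-1971 moved to the set of PLK2null-7748, 1 of the 15 was at that p, and without PLK2null-7748, 2 were, with a median of 0.18. Basal genes had a median of 0.36 with Trp63 (1.51), the basal transcription factor, as 1 of 10, and Trp63 was above all 19xx tumors of the set in 5 of 6 sets. Milk genes had a median of 0.32 with Csn2 (2.24) as 1 of 11, and 2 without PLK2null-7748. Fgfr2 (1.80) and Igf2 (2.85), a receptor and a growth factor, were higher and Ereg (-1.13) lower among 22 growth factor genes. Igf2 was at 21491 in PLK2null-7749 against 344 to 952 in its set, and at 8106 in PLK2null-7763.

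Proliferation genes had values that overlapped between the groups. Their median was -0.01, 0 of 20 were at that p, and Mki67, the marker of cycling cells, named outside the rule for named genes, was at 8393 to 17118 in the 77xx and 7024 to 16333 in the 19xx tumors. Of the p53 targets, Plk2 and the cell cycle inhibitor Cdkn1a (-0.51) were lower and Trp53inp1 (0.40) higher among 14. Among lipid genes Lpl, a lipoprotein lipase, was lower (-1.36). Interferon, MHC class I, heat shock, unfolded protein, Notch and TGF-β lists had 0 genes at that p. The interferon score differed by -2.61 in the set of PLK2null-7748 and by 1.58 in that of PLK2null-7750. The other lists had at most 3 genes at that p in both directions together.

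**Figure D5:**
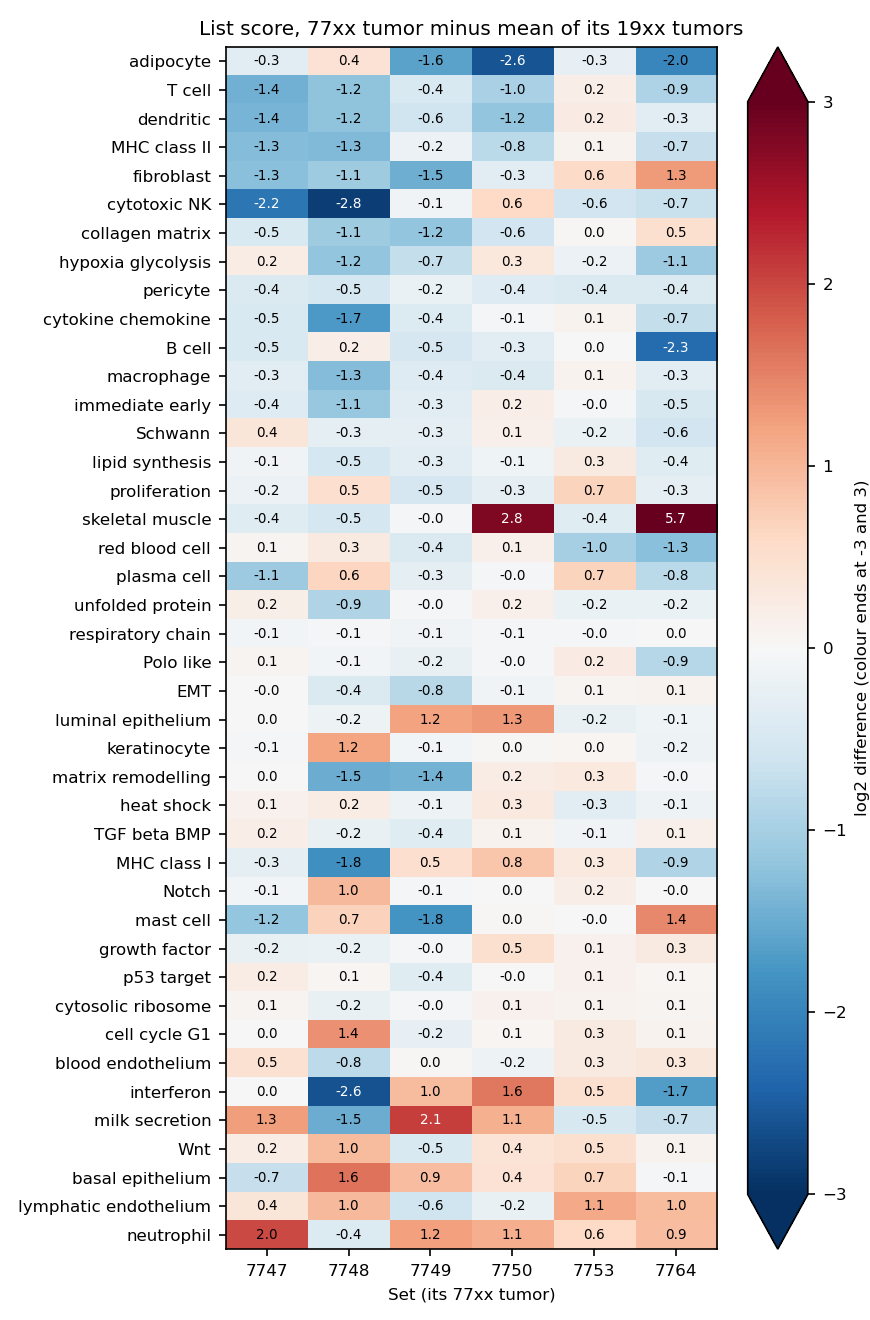
Score of each of the 42 lists in the 77xx tumor minus the mean score of the 19xx tumors of its set, in log2 units, for the 6 sets (columns). Neutrophil genes are higher in 5 of 6 sets and pericyte genes lower in 6 of 6, while interferon, muscle and milk genes differ in sign from set to set. Over 42 lists, such counts can arise by chance.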

How the data were processed

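Paired reads were aligned to mm10 with STAR 2.7.6a and quantified with Salmon 1.4.0; SAMtools and Picard 2.22.4 are also named in the submitters' processing notes. The authors deposited 1 table of 47480 gene symbols as a linear signal, estimated counts divided by the upper quartile of nonzero values and scaled to 1000. The annotation they used is not given in the sources used here. The value of 1 read was taken from the commonest low value in each tumor. Only 77.9 to 80.3% of nonzero values lay within 0.1 read of a whole number, so reads were not recovered and no count model was used. Floors cover counting error only.

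Genes with a mean of at least 10 over the 25 tumors were tested on log2(value + 1) with limma 3.58.1 (R 4.3.3) and Benjamini-Hochberg adjustment over all genes tested, at 0.05. The study's methods state no test between tumor numbers. Sets were read from correlations in these data and entered as a fixed block. Each tumor was 1 sample, and p-values measure the spread between tumors, some of them related. Single genes were tested by exact permutation, which takes related tumors as unrelated, so its p can be too small. The 42 gene lists, members and named genes were chosen with earlier results of these data known. Since none was called, named genes were the 5 of lowest p per direction in each comparison without predicted genes, up to 4 of lowest p per list within sets, and 10 genes the study names for these tumors. Positions are from GENCODE vM21 (GRCm38), in which 95.0% of symbols matched 1 gene. Values were computed in Python 3.11.15 with pandas 2.3.3 and numpy 2.4.6, permutations with scipy 1.17.1 and plots with matplotlib 3.10.9. The tests were also run on simulated data, and the outcome is not given here. That run is no evidence that p-values hold for related tumors or for sets read from the same values. The p53-/- tumors and PLK2null-743, PLK2null-733 and PLK2null-732 entered no test.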

Additional observations from a re-analysis of the deposited data

Results flagged for a closer look

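With 7 tumors in the 77xx group, Dixon's test was run on 42 list scores and 26 named genes, and 11 of 68 had 1 tumor far from the other 6. Chance flags about 1 in 20 of independent items. These items were not independent, since all 8 flagged lists are of PLK2null-7763. Many of the named genes were picked by p in these same tumors. The 11 of 68 can therefore not be read against that share. PLK2null-7763 had the highest scores of T cell (2.47), B cell (4.49), plasma cell (2.97) and dendritic cell genes (2.42). It also had the highest scores of blood endothelium (3.81), lymphatic endothelium (5.86) and pericyte genes (2.02), and the lowest of luminal epithelium (-1.07). Over the other 6 tumors the blood endothelium score ran from -0.62 to 0.45 and the B cell score from -0.84 to 1.17. PLK2null-7764 had the highest value of Mylpf, 286, against 22.6 to 42.04, and the lowest of Esm1, 16.5, against 133 to 566. PLK2null-7747 had the highest value of Mdm2, 19585, against 1052 to 2284.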

How the results depend on the processing

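In each alternative run, 0 genes passed in both comparisons, with a lowest adjusted p of 0.0763 (7 against 18, no filter) and 0.141 (within sets, without PLK2null-7753). Genes at an unadjusted p below 0.05 numbered 1064 and 2419 without a filter, in the 2 comparisons. From 7 against 18 the number was 1628 with sets as a random block (lowest adjusted p, 0.362; 0 passed), 97 with the mean of each 19xx set as 1 sample and 1486 with sets as a fixed block. The comparison within sets gave 929 of 17014 genes (5.46%) with 1 difference per set in place of the block, against 8.73% with the block. Leaving out each tumor in turn gave 190 (without PLK2null-7748) to 852 (without PLK2null-7750), and within sets 681 (without PLK2null-7748) to 1600 (without PLK2null-7753). The median of skeletal muscle genes was 0.47 and 0.68 with a mean of at least 100, and 0.48 to 1.27 and 0.54 to 1.60 when a tumor was left out; without PLK2null-7764 it covers 3 genes in place of 9. That of blood endothelium was -0.0103 with sets as a fixed block and -0.0128 (without PLK2null-7763) to 0.68 when a tumor was left out.

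Signs turned for a few genes that did not pass. Mdm2 was at 0.12 with the random block, 0.10 with set means, 0.15 with the fixed block and, chosen after seeing the data, -0.0201 with PLK2null-1971 moved. When a tumor was left out, Mdm2 ran from -0.55 to 0.15 and within sets from -0.0642 to 0.25, Plk4 from -0.00867 to 0.14 and from -0.0273 to 0.17, Alas2 from -0.59 to 0.0366, Hba-a1 from -0.80 to 0.0171, Col15a1 from -0.66 to 0.0601 and Rgs5 from -0.77 to 0.10. The difference of Plk2 stayed between -1.27 and -0.93, and within sets between -1.10 and -0.67. The labels pair no tumors, and the sets used as blocks were read from these data. The cause of these changes was not tested.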

Other observations

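The following groups were looked at after the results were seen. Of 343 tested genes whose symbol begins with Zfp, most of them zinc-finger genes, 84 were higher and 2 lower in the 77xx tumors within sets at an unadjusted p below 0.05, which is 24.5% higher against 4.85% of all genes. Their median difference was 0.18. In the comparison of 7 with 18, 22 were higher and 0 lower by limma, and 273 of the 343 (79.6%) had a difference above 0, against 55.3% of all genes. The counts within sets were 74 and 2 with quantile normalization and 70 and 2 with median of ratios. Without PLK2null-7748 they were 47 and 1, beside 424 higher and 257 lower among all 16976 genes. Without PLK2null-7764 they were 39 and 2, beside 532 and 658 among all 17010 genes. By set, the median difference of Zfp genes was 0.39 for PLK2null-7764, 0.36 for PLK2null-7749 and 0.23 for PLK2null-7748, and 0.03, 0.05 and -0.01 for PLK2null-7747, PLK2null-7750 and PLK2null-7753. Many of these genes have near-identical copies among which reads may be split.

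Of 16 genes of the circadian clock, 4 were higher and 1 lower within sets at that p, beside 4.85% higher and 3.89% lower among all genes. Per2, a repressor of the clock, differed by 0.70, Cry1 by 0.37, Tef by 0.39 and Clock by 0.23, and Nr1d1 by -0.67. Of 34 tested genes within 5 Mb of Plk2, 0 were higher and 2 lower within sets by limma at that p, Esm1 and Itga1 (-0.62), an integrin subunit, a share near the 3.89% lower among all genes. The 3 tumors left out had Plk2 at 36.6 to 128.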
